A study of Mus musculus with 10 samples.

Results

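The genes described here take up glucose, break it down to pyruvate, exchange lactate, and build and break down glycogen. They are the rows of the deposited expression table whose symbol is one of 32 chosen names, which gave 33 of 30074 rows, since Aldoa stands on 2 rows. In all, 31 rows had a mean of at least 0.5 FPKM (reads per kilobase of gene, relative to the size of the library) and were tested. Aldoc and the second Aldoa row (ENSMUSG00000114515) were below that level and were not tested: Aldoc was between 0.0200 and 0.0737 FPKM in LPS+ART hearts and between 0 and 0.110 FPKM in LPS+Vehicle hearts. The second Aldoa row was between 0.0343 and 0.171 FPKM in LPS+ART hearts and between 0.0734 and 0.346 FPKM in LPS+Vehicle hearts.

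RNA was sequenced from whole hearts of wild-type C57BL/6 male mice aged 8 to 12 weeks and weighing about 25 g, with 5 libraries in each of 2 groups. All mice had received lipopolysaccharide (LPS), a bacterial endotoxin, by intraperitoneal injection as a model of septic cardiomyopathy. The LPS+ART group was also given artesunate, an antimalarial drug with an endoperoxide bridge, by the same route, in doses of 50 mg/kg given 10 min ahead of LPS and 4 h after it. The LPS+Vehicle group was given vehicle. Cardiac function was assessed 24 h after LPS, and no separate time is given for the collection of RNA. Hearts without LPS were not analysed here, so no value below is set against an unstimulated baseline. The model is systemic endotoxin, with no live infection, and whole-heart RNA mixes cardiomyocytes with all other cell types of the organ.

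Glycolysis converts glucose to pyruvate in the cytosol; hexokinase traps the sugar and phosphofructokinase commits it to the pathway. The adult heart draws most of its energy from fatty acids and uses glucose and lactate as further fuels. Lactate dehydrogenase interconverts pyruvate and lactate, monocarboxylate transporters move lactate across the cell membrane, and glycogen, built by glycogen synthase and the branching enzyme and degraded by phosphorylase, is the local glucose store. Several steps exist as a form typical of striated muscle and a form found in many cell types, and both kinds are among the members.

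The libraries held 30684056 to 36679402 recovered reads in the LPS+ART group and 29980900 to 54222272 in the LPS+Vehicle group. Mitochondrially encoded genes took 24.7 to 30.2% of reads in LPS+ART hearts, and 21.0 to 23.7% in LPS+Vehicle hearts. Over all 13314 genes tested, the median log2 fold change of LPS+ART over LPS+Vehicle was -0.27 on the log2(FPKM + 1) scale with values as deposited, and 0.02 after median-ratio scaling of the libraries, so calls are given under both. LPS+ART replicates 3 and 4 stood apart from the other LPS+ART hearts on the second principal component, and LPS+Vehicle replicates 2 and 5 were far closer to each other (chi-square per degree of freedom 1.86) than other pairs within a group (15.3 to 53.2); the labels do not settle whether these are separate animals, and n = 5 below counts libraries. The summed level of 10 cardiomyocyte markers was 11479 to 13875 FPKM in LPS+ART and 9646 to 10555 FPKM in LPS+Vehicle, so the markers of heart muscle were present, and the 5 skeletal muscle markers measured summed to 0.625 to 1.61 FPKM in LPS+ART and 0.939 to 2.30 FPKM in LPS+Vehicle. The 10 macrophage and monocyte markers summed to 60.1 to 109 FPKM in LPS+ART and 154 to 297 FPKM in LPS+Vehicle, and 8 fibroblast markers to 145 to 192 FPKM in LPS+ART and 175 to 319 FPKM in LPS+Vehicle. The 8 neutrophil markers summed to 29.8 to 234 FPKM in LPS+ART, where replicates 3 and 4 were highest at 234 and 121 FPKM, and to 29.1 to 68.7 FPKM in LPS+Vehicle. That sum is mostly S100a8 and S100a9, which passed no test. Of the 6 neutrophil markers tested, Csf3r and Mmp8 were called lower in LPS+ART as deposited. After scaling 1 of the 6 was called lower, and after cyclic loess, a further scaling described below, 0 were. The cardiomyocyte markers went both ways, with 5 of 10 called higher and 2 lower as deposited, and 7 higher and 1 lower after scaling. As deposited, Actc1 was 2.22-fold higher and Pln 2.51-fold lower. The 8 smooth muscle and pericyte markers summed to 133 to 187 FPKM in LPS+ART and 206 to 277 FPKM in LPS+Vehicle. The 8 endothelial markers summed to 160 to 233 FPKM in LPS+ART and 174 to 225 FPKM in LPS+Vehicle, so their sums overlapped. By gene, 5 of these 8 were called lower and 1 higher as deposited, and 3 lower and 3 higher after scaling. Beside these marker counts, 11.8% of all genes were called higher and 52.9% lower as deposited, and 30.1% each way after scaling. The part of these shifts in the results below was not tested.

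LPS+ART hearts had more RNA for the glucose transporter Slc2a1, the kinase-type regulator Pfkfb3, the hexokinase Hk2, the phosphofructokinase subunit Pfkp and the muscle enolase Eno3 than LPS+Vehicle hearts. They had less RNA for the cardiac regulator Pfkfb2, the lactate transporter Slc16a1, glycogen synthase Gys1 and the glycogen branching enzyme Gbe1. The phosphofructokinase subunit Pfkm was also called higher, with overlapping groups and a call that was lost in some settings. With values as deposited, limma called 8 of the 31 tested members higher in LPS+ART at an adjusted p under 0.05, where 11.8% of all genes tested were called higher. It called 11 lower, where 52.9% of all genes were called lower, and 12 passed in neither direction, so that 19 were called, where 64.6% of all genes were. After median-ratio scaling, 18 members were higher and 5 lower, against 30.1% of all genes higher and 30.1% lower. Cyclic loess, which also removes a trend with expression level, gave 9 higher and 9 lower, against 29.0% and 28.7% of all genes. Their median log2 fold change was 0.08 as deposited and 0.43 after scaling. In whole-heart RNA, fewer cells of a type and less RNA per cell cannot be told apart.

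The scaling moved many calls, and 12 members kept theirs under the deposited values, median-ratio scaling and cyclic loess. These were Slc2a1, Hk2, Pfkm, Pfkp, Pfkfb3, Eno3 and Ldha on the higher side and Pfkfb2, Pgam1, Slc16a1, Gys1 and Gbe1 on the lower side. Of these, 5 higher members (Slc2a1, Hk2, Pfkp, Pfkfb3 and Eno3) and 4 lower members (Pfkfb2, Slc16a1, Gys1 and Gbe1) passed in all 21 settings tried. A further 6 (Hk1, Gpi1, Pfkl, Pfkfb1, Bpgm and Pygb) were lower as deposited and passed in neither direction after scaling, while 10 (Slc2a4, Pfkfb4, Aldoa, Tpi1, Pgk1, Pgam2, Pkm, Slc16a3, Pygm and Ugp2) passed as higher after scaling and not as deposited. With LPS+ART replicates 3 and 4 left out, 10 members were higher (11.4% of all genes) and 10 lower (49.1% of all genes). The LPS+ART and LPS+Vehicle hearts did not overlap in 17 of the 31 members, where 50.1% of all genes did not overlap.

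**Figure D1:**
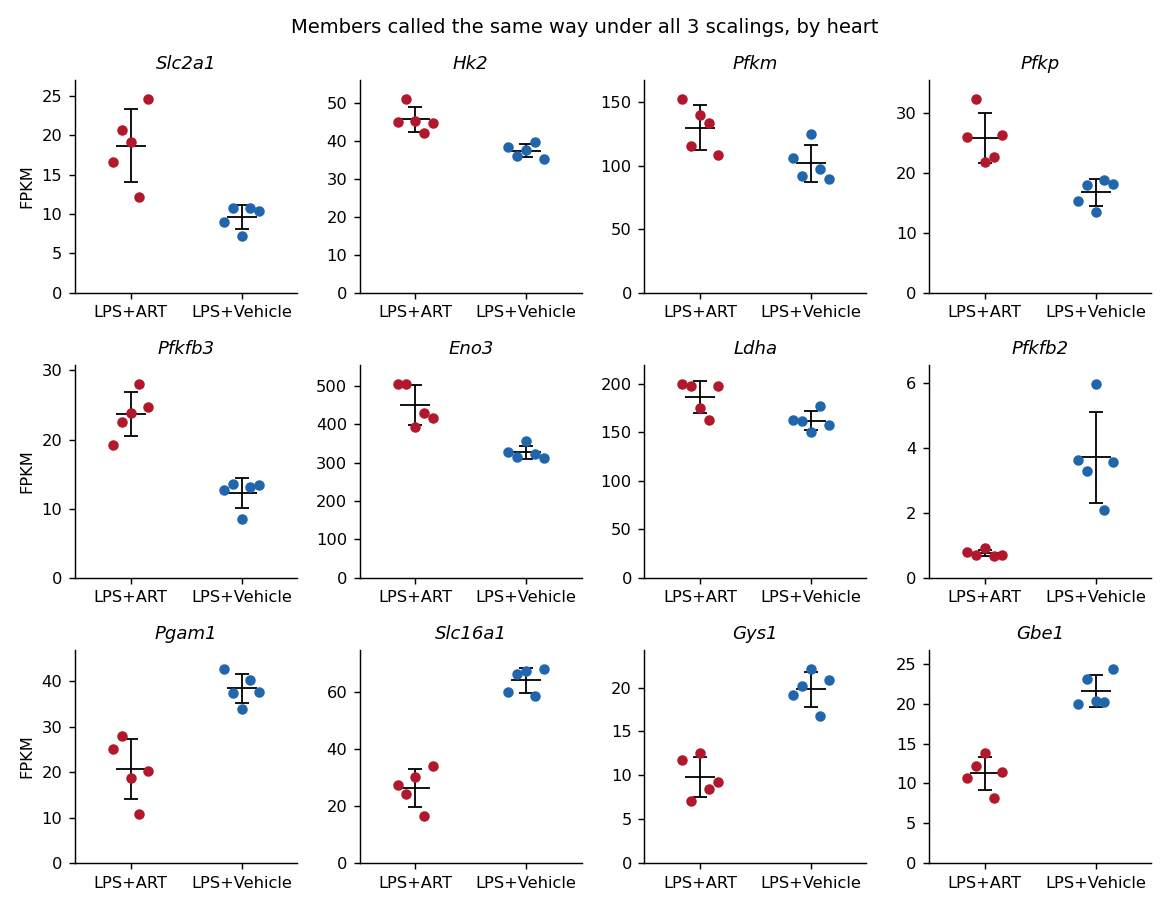
FPKM of 12 members in each heart, with LPS+ART hearts in red and LPS+Vehicle hearts in blue; the bars give the mean and 1 SD of 5 hearts. The members shown passed the test the same way as deposited, after median-ratio scaling and after cyclic loess; Slc2a1 lies between 12.2 and 24.6 FPKM in LPS+ART and between 7.20 and 10.8 FPKM in LPS+Vehicle.

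Glucose enters heart cells through GLUT1, encoded by Slc2a1 and present in most cell types, and through the insulin-responsive GLUT4, encoded by Slc2a4. Slc2a1 stood at 16.6, 20.7, 19.1, 12.2 and 24.6 FPKM in LPS+ART replicates 1 to 5, against 8.99, 10.7, 7.20, 10.8 and 10.4 FPKM in LPS+Vehicle replicates 1 to 5. Every LPS+ART heart was above every LPS+Vehicle heart, with replicate 4 the lowest of the LPS+ART hearts. The mean was 18.6 ± 4.63 FPKM in LPS+ART and 9.62 ± 1.53 FPKM in LPS+Vehicle (SD, n = 5 each, as for all means below), a log2 fold change of 0.87 ± 0.17 (SE) with a limma adjusted p of 0.000792. After scaling it was 1.23, with a limma adjusted p of 7.67e-05. The 250 bases before its annotated start (chr4:119108495-119108744, plus strand, GRCm38.p6) are shown because Slc2a1 had one of the 2 largest rises. Capitals mark the letters ACGTG or their reverse complement, one form of the core of the element that hypoxia-inducible factors bind. Other forms of that core were not searched or marked.
Slc2a1: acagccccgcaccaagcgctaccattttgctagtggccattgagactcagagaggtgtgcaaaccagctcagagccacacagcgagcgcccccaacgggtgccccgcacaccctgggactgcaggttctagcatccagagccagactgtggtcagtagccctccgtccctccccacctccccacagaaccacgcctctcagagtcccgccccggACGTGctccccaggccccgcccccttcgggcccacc
Slc2a4 ranged from 22.0 to 44.4 FPKM in LPS+ART and from 23.2 to 36.1 FPKM in LPS+Vehicle, so the groups overlapped throughout, and its means were 30.8 ± 9.20 FPKM in LPS+ART and 27.2 ± 5.25 FPKM in LPS+Vehicle (limma adjusted p = 0.52; 0.0401 after scaling). Its log2 fold change was 0.14, and -0.06 without LPS+ART replicates 3 and 4, so its direction rests on those hearts.

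Hexokinase phosphorylates glucose on entry; Hk2 is the form typical of insulin-sensitive muscle and Hk1 is found in most tissues. Hk2 was at 45.0, 51.1, 45.5, 42.2 and 44.8 FPKM in LPS+ART replicates 1 to 5, against 38.4, 36.2, 37.6, 39.8 and 35.3 FPKM in LPS+Vehicle replicates 1 to 5. The difference was small but the groups did not overlap. The log2 fold change was 0.28 ± 0.07 as deposited (limma adjusted p = 0.00355) and 0.67 ± 0.08 after scaling (limma adjusted p = 4.3e-05). Hk1 was at 17.9, 28.3, 22.0, 18.7 and 29.3 FPKM in LPS+ART replicates 1 to 5, against 32.4, 39.0, 35.6, 32.7 and 39.2 FPKM in LPS+Vehicle replicates 1 to 5. All LPS+ART hearts were below all LPS+Vehicle hearts, with LPS+ART replicates 1 and 4 lowest. Hk1 fell by 0.63 on the log2 scale (limma adjusted p = 0.0019), and after scaling the value was -0.24 (limma adjusted p = 0.119).

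The upper steps turn glucose phosphate into triose phosphate. Phosphofructokinase is made of muscle (Pfkm), liver (Pfkl) and platelet (Pfkp) subunits, and they moved in different directions as deposited. Pfkp was at 26.1, 32.4, 21.9, 22.7 and 26.4 FPKM in LPS+ART replicates 1 to 5, against 15.3, 18.0, 13.6, 18.8 and 18.2 FPKM in LPS+Vehicle replicates 1 to 5, without overlap. It rose by 0.59 ± 0.12 on the log2 scale (limma adjusted p = 0.00104). Pfkm, by far the most abundant subunit, was at 153, 116, 140, 134 and 108 FPKM in LPS+ART replicates 1 to 5, against 106, 92.0, 125, 97.2 and 89.4 FPKM in LPS+Vehicle replicates 1 to 5. The groups overlapped, through LPS+Vehicle replicate 3, which was above LPS+ART replicates 2 and 5. Its log2 fold change was 0.35 ± 0.12 (limma adjusted p = 0.0205), and the call was lost without LPS+ART replicates 3 and 4 (adjusted p = 0.0971), without LPS+Vehicle replicate 2 (0.0516), without LPS+Vehicle replicate 5 (0.0537) and with those vehicle hearts averaged (0.0522). Pfkl was the lowest of the subunits, at 8.33, 6.86, 6.77, 4.26 and 6.06 FPKM in LPS+ART replicates 1 to 5, against 10.7, 10.0, 10.8, 9.56 and 9.62 FPKM in LPS+Vehicle replicates 1 to 5. It fell by 0.60 on the log2 scale as deposited (limma adjusted p = 0.00153), with no call after scaling (-0.25, limma adjusted p = 0.0736).

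Gpi1, the isomerase that precedes phosphofructokinase, was 58.5 to 64.1 FPKM in LPS+ART hearts and 75.9 to 88.0 FPKM in LPS+Vehicle hearts. Its log2 fold change was -0.45 (limma adjusted p = 8.42e-05), and -0.06 after scaling (limma adjusted p = 0.398). The muscle aldolase Aldoa was among the most abundant members and differed little, with 491 ± 20.3 FPKM in LPS+ART and 486 ± 17.8 FPKM in LPS+Vehicle (limma adjusted p = 0.856). Scaling put Aldoa higher by 0.41 and cyclic loess gave -0.13, so no direction can be given. Tpi1, triose phosphate isomerase, was 116 to 188 FPKM in LPS+ART, where replicate 1 was highest, and 114 to 130 FPKM in LPS+Vehicle (limma adjusted p = 0.25; 0.00119 after scaling).

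The PFKFB enzymes make and remove fructose bisphosphate of the regulatory kind, the strongest activator of phosphofructokinase. Pfkfb2 encodes the form known from heart, Pfkfb3 an inducible form with high kinase activity, Pfkfb1 the form known from liver and Pfkfb4 the form known from testis. Pfkfb3 was at 19.3, 22.6, 23.8, 28.0 and 24.7 FPKM in LPS+ART replicates 1 to 5, against 12.7, 13.5, 8.46, 13.1 and 13.5 FPKM in LPS+Vehicle replicates 1 to 5. Every LPS+ART heart was higher, and LPS+Vehicle replicate 3 was the lowest of all. The ratio of means was 1.93-fold, with a log2 fold change of 0.90 ± 0.13 (limma adjusted p = 0.000119) and 1.28 after scaling (limma adjusted p = 4.96e-05). Pfkfb2 was at 0.802, 0.714, 0.917, 0.667 and 0.699 FPKM in LPS+ART replicates 1 to 5, against 3.63, 3.29, 5.96, 2.08 and 3.58 FPKM in LPS+Vehicle replicates 1 to 5. The LPS+ART hearts lay close together under 1 FPKM, and the LPS+Vehicle hearts were all higher and spread more widely. Pfkfb2 was 4.88-fold lower in LPS+ART by the ratio of means, with a log2 fold change of -1.37 ± 0.17 (limma adjusted p = 3.82e-05) and -1.13 after scaling (limma adjusted p = 0.000139). The FPKM that 3 reads give a 1 kb gene was 0.0553 to 0.1001 in these libraries, well under the Pfkfb2 values.

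Pfkfb1 was at most 0.997 FPKM in LPS+ART and at least 1.04 FPKM in LPS+Vehicle. Its log2 fold change was -0.47 (limma adjusted p = 0.0119), and it passed neither after scaling (limma adjusted p = 0.107) nor without LPS+ART replicates 3 and 4 (0.0594). Pfkfb4 was 1.13 ± 0.177 FPKM in LPS+ART and 1.02 ± 0.130 FPKM in LPS+Vehicle (limma adjusted p = 0.425; 0.016 after scaling). Of the promoters below, each 250 bases before a RefSeq start on the minus strand of GRCm38.p6, Pfkfb3 is shown for its rise and Pfkfb2 for its fall. Pfkfb3 start 1 lies at chr2:11553930-11554179, Pfkfb3 start 2 at chr2:11502091-11502340 and Pfkfb2 start 1 at chr1:130715822-130716071. Capitals mark ACGTG and CACGTG on either strand; CACGTG, the E-box that MYC-type and carbohydrate-response factors bind, contains ACGTG on both strands.
Pfkfb3 start 1: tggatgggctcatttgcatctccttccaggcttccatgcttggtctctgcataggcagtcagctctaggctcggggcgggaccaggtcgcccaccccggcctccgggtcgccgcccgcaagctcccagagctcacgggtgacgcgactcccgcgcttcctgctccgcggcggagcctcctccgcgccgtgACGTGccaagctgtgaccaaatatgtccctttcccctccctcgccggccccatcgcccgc
Pfkfb3 start 2: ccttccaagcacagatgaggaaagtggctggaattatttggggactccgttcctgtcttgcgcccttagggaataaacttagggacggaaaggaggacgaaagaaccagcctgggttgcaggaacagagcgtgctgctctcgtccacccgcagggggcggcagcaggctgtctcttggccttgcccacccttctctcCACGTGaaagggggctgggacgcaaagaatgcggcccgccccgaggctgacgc
Pfkfb2 start 1: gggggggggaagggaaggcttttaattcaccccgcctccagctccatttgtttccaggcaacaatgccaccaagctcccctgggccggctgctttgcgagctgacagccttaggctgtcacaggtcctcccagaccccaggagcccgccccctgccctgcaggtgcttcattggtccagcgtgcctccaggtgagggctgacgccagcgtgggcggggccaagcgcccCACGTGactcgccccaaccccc
The letters marked occur in both the gene that rose and the gene that fell.

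**Figure D2:**
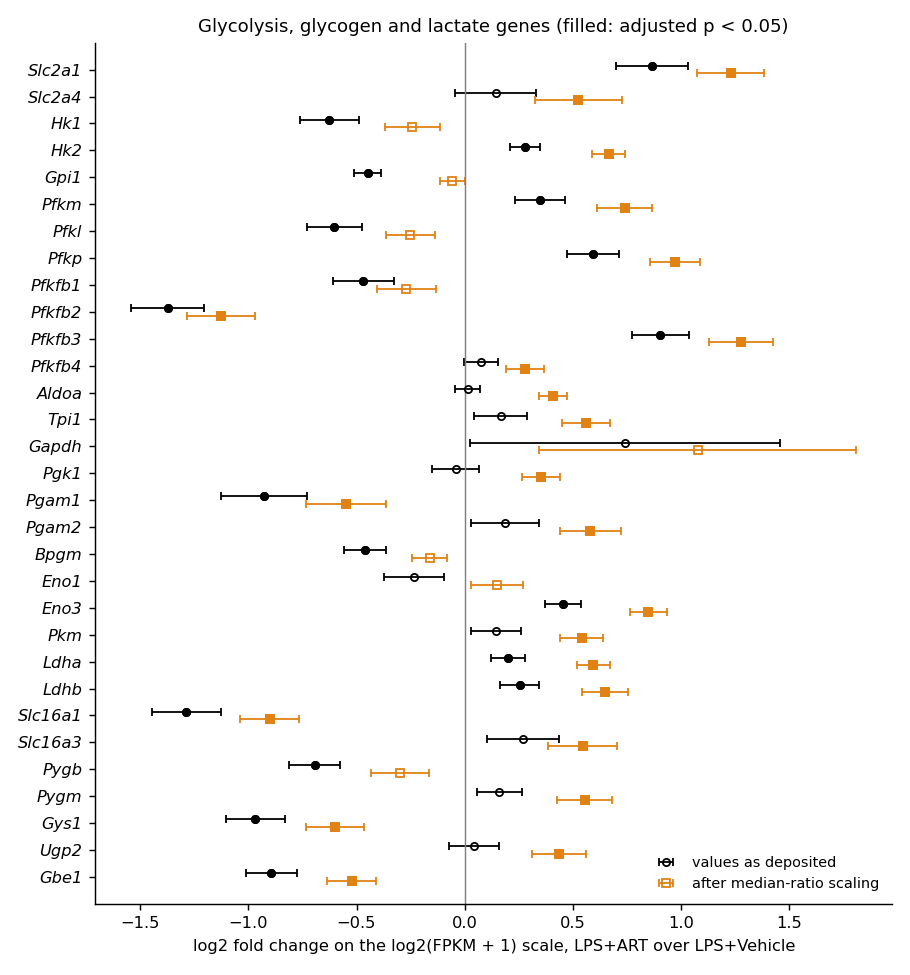
Log2 fold change of LPS+ART over LPS+Vehicle on the log2(FPKM + 1) scale for the 31 tested members, in the order of the pathway; black circles are values as deposited, orange squares values after median-ratio scaling, bars are 1 SE and filled symbols passed an adjusted p of 0.05. Pfkfb2 at -1.37 and Slc16a1 at -1.29 lie farthest to the left and Pfkfb3 at 0.90 and Slc2a1 at 0.87 are the largest called rises as deposited.

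The lower steps oxidise triose phosphate and make pyruvate. Eno3, the enolase of striated muscle, was at 504, 504, 394, 431 and 417 FPKM in LPS+ART replicates 1 to 5, against 327, 316, 357, 322 and 312 FPKM in LPS+Vehicle replicates 1 to 5. The groups did not overlap. Eno3 rose by 0.45 ± 0.08 on the log2 scale (limma adjusted p = 0.000628) and by 0.85 ± 0.08 after scaling (limma adjusted p = 2.15e-05). Eno1, the enolase of most other tissues, averaged 29.7 ± 6.21 FPKM in LPS+ART and 34.5 ± 2.72 FPKM in LPS+Vehicle and passed neither as deposited (-0.23, limma adjusted p = 0.162) nor after scaling (0.15, limma adjusted p = 0.302).

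Phosphoglycerate mutase has a muscle form, Pgam2, and a widespread form, Pgam1. Pgam1 was at 25.1, 28.0, 18.8, 10.8 and 20.3 FPKM in LPS+ART replicates 1 to 5, against 42.6, 37.5, 34.0, 40.4 and 37.6 FPKM in LPS+Vehicle replicates 1 to 5. No LPS+ART heart reached the lowest LPS+Vehicle heart, and LPS+ART replicate 4 was lowest. The log2 fold change was -0.93 ± 0.20 (limma adjusted p = 0.00167), -0.55 after scaling (limma adjusted p = 0.0233) and -0.31 after scaling without LPS+ART replicates 3 and 4 (limma adjusted p = 0.0616). Pgam2 was 159 to 318 FPKM in LPS+ART and 175 to 228 FPKM in LPS+Vehicle, overlapping (limma adjusted p = 0.316; 0.00405 after scaling). Bpgm, which makes the haemoglobin effector of red cells, averaged 2.57 ± 0.390 FPKM in LPS+ART and 3.92 ± 0.481 FPKM in LPS+Vehicle, a log2 fold change of -0.46 (limma adjusted p = 0.00147) that was -0.16 after scaling (limma adjusted p = 0.106). The summed level of 8 erythroid and reticulocyte markers was 57.0 to 129 FPKM in LPS+ART and 20.1 to 66.8 FPKM in LPS+Vehicle; its part in the Bpgm values was not tested.

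Pgk1, phosphoglycerate kinase, averaged 178 ± 29.7 FPKM in LPS+ART and 181 ± 6.43 FPKM in LPS+Vehicle (limma adjusted p = 0.746). Its log2 fold change of -0.04 became 0.35 after scaling and 0.13 without LPS+ART replicates 3 and 4, so its sign depends on both choices. Pkm, pyruvate kinase of muscle and many other tissues, averaged 226 ± 37.5 FPKM in LPS+ART and 202 ± 16.7 FPKM in LPS+Vehicle (limma adjusted p = 0.284; 0.000761 after scaling); its splice forms are not separated in a table of genes. Without LPS+ART replicates 3 and 4, Pkm passed as deposited at 0.32 (limma adjusted p = 0.00787) and so did Pgam2 at 0.38 (0.0346). Gapdh, the triose phosphate dehydrogenase often used as a housekeeping control, was erratic: 50.7, 5.71, 3.85, 24.8 and 7.26 FPKM in LPS+ART replicates 1 to 5, against 5.37, 3.26, 5.83, 33.7 and 3.31 FPKM in LPS+Vehicle replicates 1 to 5. LPS+ART replicates 1 and 4 and LPS+Vehicle replicate 4 were high and the other 7 hearts low. Its coefficient of variation was 108% in LPS+ART and 128% in LPS+Vehicle, where the members' medians were 16.7% and 9.33% in the same groups. Gapdh passed under neither scaling (limma adjusted p = 0.384 as deposited). Its means of 18.5 FPKM in LPS+ART and 10.3 FPKM in LPS+Vehicle were far below those of Pgk1 and Pkm, so its level here may not be reliable.

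Members with near-identical copies in the genome are uncertain where the counting divided reads among them, which is not given in the sources used here. Gapdh, Eno1 and Pgam1 are among such members, so the ratios of Eno1 over Eno3 and Pgam1 over Pgam2 below share this limit. Its part in the Gapdh values was not tested. Pgk1-rs7 was at 8.42 ± 1.45 FPKM in LPS+ART and 8.03 ± 1.44 FPKM in LPS+Vehicle, and Tpi-rs11 at 6.28 ± 1.94 FPKM in LPS+ART and 6.41 ± 1.54 FPKM in LPS+Vehicle. Pgam1-ps2 was at 1.33 ± 0.398 FPKM in LPS+ART and 2.21 ± 0.420 FPKM in LPS+Vehicle. Gapdh-ps15, Eno1b and Ldha-ps2 were between 0.734 and 1.79 FPKM on average in either group.

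Lactate dehydrogenase is built from Ldha, the subunit typical of glycolytic tissue, and Ldhb, the subunit typical of heart. Both were abundant: Ldha was at 199, 198, 175, 163 and 198 FPKM in LPS+ART replicates 1 to 5, against 163, 161, 150, 177 and 158 FPKM in LPS+Vehicle replicates 1 to 5. LPS+Vehicle replicate 4 was above LPS+ART replicates 3 and 4. Ldhb was at 532, 520, 569, 459 and 455 FPKM in LPS+ART replicates 1 to 5, against 452, 383, 454, 452 and 384 FPKM in LPS+Vehicle replicates 1 to 5, and the groups only just did not overlap. Ldha rose by 0.20 ± 0.08 on the log2 scale (limma adjusted p = 0.0406) and Ldhb by 0.25 ± 0.09 (limma adjusted p = 0.0251). Neither call was stable. Ldha lost its call in 10 of the 21 other settings, 7 of them with a single heart left out (every one but LPS+ART replicates 3 and 4 and LPS+Vehicle replicate 4), with adjusted p up to 0.0927. Ldhb lost its call in 7 settings, among them cyclic loess (0.12, limma adjusted p = 0.263) and each of LPS+ART replicates 1 and 3 and LPS+Vehicle replicates 2 and 5 left out alone, with adjusted p of 0.0524 to 0.0669 in those.

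Slc16a1 encodes MCT1, the lactate and ketone body transporter of heart muscle and many other cells, and Slc16a3 encodes MCT4, which exports lactate from glycolytic cells. Slc16a1 was at 27.2, 24.1, 30.0, 16.3 and 34.0 FPKM in LPS+ART replicates 1 to 5, against 60.0, 66.2, 67.3, 58.7 and 67.9 FPKM in LPS+Vehicle replicates 1 to 5. The groups were far apart, with no LPS+ART heart above 34.0 FPKM and no LPS+Vehicle heart below 58.7 FPKM. It was 2.43-fold lower by the ratio of means, with a log2 fold change of -1.29 ± 0.16 (limma adjusted p = 3.87e-05) and -0.90 after scaling (limma adjusted p = 0.000241). Its promoter (chr3:104638414-104638663, plus strand, GRCm38.p6) is shown because it had one of the 2 largest falls, with the same letters in capitals.
Slc16a1: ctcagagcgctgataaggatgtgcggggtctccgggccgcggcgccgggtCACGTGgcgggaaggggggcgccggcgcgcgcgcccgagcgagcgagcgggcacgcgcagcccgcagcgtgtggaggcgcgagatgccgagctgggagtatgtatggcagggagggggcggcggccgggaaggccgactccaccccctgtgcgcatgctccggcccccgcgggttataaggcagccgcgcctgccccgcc
Slc16a3 was at 3.16, 3.66, 3.08, 1.59 and 3.03 FPKM in LPS+ART replicates 1 to 5, against 1.74, 2.66, 1.49, 2.56 and 2.65 FPKM in LPS+Vehicle replicates 1 to 5. LPS+ART replicate 4 was as low as the lowest LPS+Vehicle hearts and the other 4 were above all of them. The log2 fold change was 0.27 ± 0.17 (limma adjusted p = 0.173), 0.43 without LPS+ART replicates 3 and 4 (limma adjusted p = 0.0287) and 0.54 after scaling (limma adjusted p = 0.0115).

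As deposited, glycogen members were lower or did not pass. Gys1, the glycogen synthase of muscle, was at 11.7, 7.10, 12.5, 8.42 and 9.28 FPKM in LPS+ART replicates 1 to 5, against 19.2, 20.2, 22.1, 16.8 and 20.9 FPKM in LPS+Vehicle replicates 1 to 5. Gbe1, the branching enzyme, was at 10.7, 12.2, 13.8, 8.19 and 11.5 FPKM in LPS+ART replicates 1 to 5, against 20.0, 23.2, 20.4, 20.2 and 24.4 FPKM in LPS+Vehicle replicates 1 to 5. For both, every LPS+ART heart was below every LPS+Vehicle heart. Gys1 fell by 0.97 ± 0.14 on the log2 scale (limma adjusted p = 9.41e-05; -0.60 and 0.00258 after scaling). Gbe1 fell by 0.89 ± 0.12 (limma adjusted p = 6.33e-05; -0.52 and 0.00206 after scaling).

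Glycogen phosphorylase is made as a muscle form (Pygm) and a brain form (Pygb), both of which the heart uses. Pygb was at 100, 87.6, 126, 108 and 91.4 FPKM in LPS+ART replicates 1 to 5, against 181, 154, 200, 142 and 155 FPKM in LPS+Vehicle replicates 1 to 5, without overlap. It fell by 0.69 ± 0.12 on the log2 scale (limma adjusted p = 0.000346); after scaling the value was -0.30 (limma adjusted p = 0.07). Pygm was 200 to 271 FPKM in LPS+ART and 195 to 247 FPKM in LPS+Vehicle (limma adjusted p = 0.195; 0.00296 after scaling). Ugp2, which makes the UDP-glucose that glycogen synthase uses, averaged 83.7 ± 16.6 FPKM in LPS+ART, where replicate 3 was highest at 113 FPKM, and 80.2 ± 6.14 FPKM in LPS+Vehicle (limma adjusted p = 0.762; 0.0105 after scaling).

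Ratios between isoforms within a heart do not depend on a scaling that multiplies a whole library by 1 factor, as median-ratio scaling does. Cyclic loess shifts genes by expression level, and the ratios were not computed under it. Of 10 pairs tested with a two-sided exact permutation test over the 5 and 5 hearts, 7 differed at an adjusted p of 0.0113. Their exact permutation p of 0.00794, the smallest this design allows, arises only where the groups do not overlap. The lack of overlap in these 7 pairs is therefore the same result and adds no support. With LPS+Vehicle replicates 2 and 5 averaged, the exact permutation test called 7 pairs, with a smallest p of 0.0159. The pairs were chosen with earlier results known, and the share of other gene pairs that separate was not computed. Of single genes, 50.1% did not overlap. In 5 of the 7 pairs the other form fell relative to the form typical of muscle, in units of FPKM over FPKM. The pairs that did not pass went both ways. Slc2a1 over Slc2a4 and Pfkp over Pfkm had log2 differences of 0.78 and 0.27, and Ldha over Ldhb -0.05. The median log2 fold change of all genes above 100 FPKM was 0.13 and that of the others -0.28. Genes up to 100 FPKM thus fell relative to those above it in general. That split does not separate Hk1 from Hk2, both below 100 FPKM, or Pygb from Pygm, both above it. How far the ratios go beyond such differences by level was not tested. The geometric mean of Hk1 over Hk2 was 0.498 in LPS+ART and 0.952 in LPS+Vehicle, that of Pfkl over Pfkm 0.0489 in LPS+ART and 0.1001 in LPS+Vehicle, and that of Pgam1 over Pgam2 0.0881 in LPS+ART and 0.196 in LPS+Vehicle. The same mean of Eno1 over Eno3 was 0.0649 in LPS+ART and 0.105 in LPS+Vehicle, and that of Pygb over Pygm was 0.427 in LPS+ART and 0.774 in LPS+Vehicle. The lower macrophage, smooth muscle and pericyte marker sums of LPS+ART hearts stand beside these ratios. So does their fibroblast marker sum, which was lower on average but overlapped between the groups. So do their higher cardiomyocyte marker sum, whose genes went both ways, and an endothelial marker sum that overlapped between the groups. All these sums are of values as deposited and were not scaled. The part of these marker levels in the ratios was not tested.

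The other 2 ratios that differed were higher in LPS+ART. Pfkfb3 over Pfkfb2 was 24.04, 31.6, 26.0, 42.0 and 35.4 in LPS+ART replicates 1 to 5, against 3.51, 4.11, 1.42, 6.29 and 3.77 in LPS+Vehicle replicates 1 to 5, which made the geometric mean 9.04-fold higher. Slc16a3 over Slc16a1 was 0.116, 0.152, 0.103, 0.0975 and 0.0891 in LPS+ART replicates 1 to 5, against 0.0290, 0.0402, 0.0221, 0.0436 and 0.0390 in LPS+Vehicle replicates 1 to 5, 3.24-fold higher. Both moved far beyond the spread within either group. The remaining pairs did not pass: Slc2a1 over Slc2a4 had a log2 difference of 0.78 (exact permutation p = 0.0952, adjusted 0.119), and without LPS+ART replicates 3 and 4 it was 1.16 (adjusted 0.0446). Pfkp over Pfkm differed by 0.27 (exact permutation, adjusted p = 0.335), and Ldha over Ldhb by -0.05 (exact permutation, adjusted p = 0.627).

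**Figure D3:**
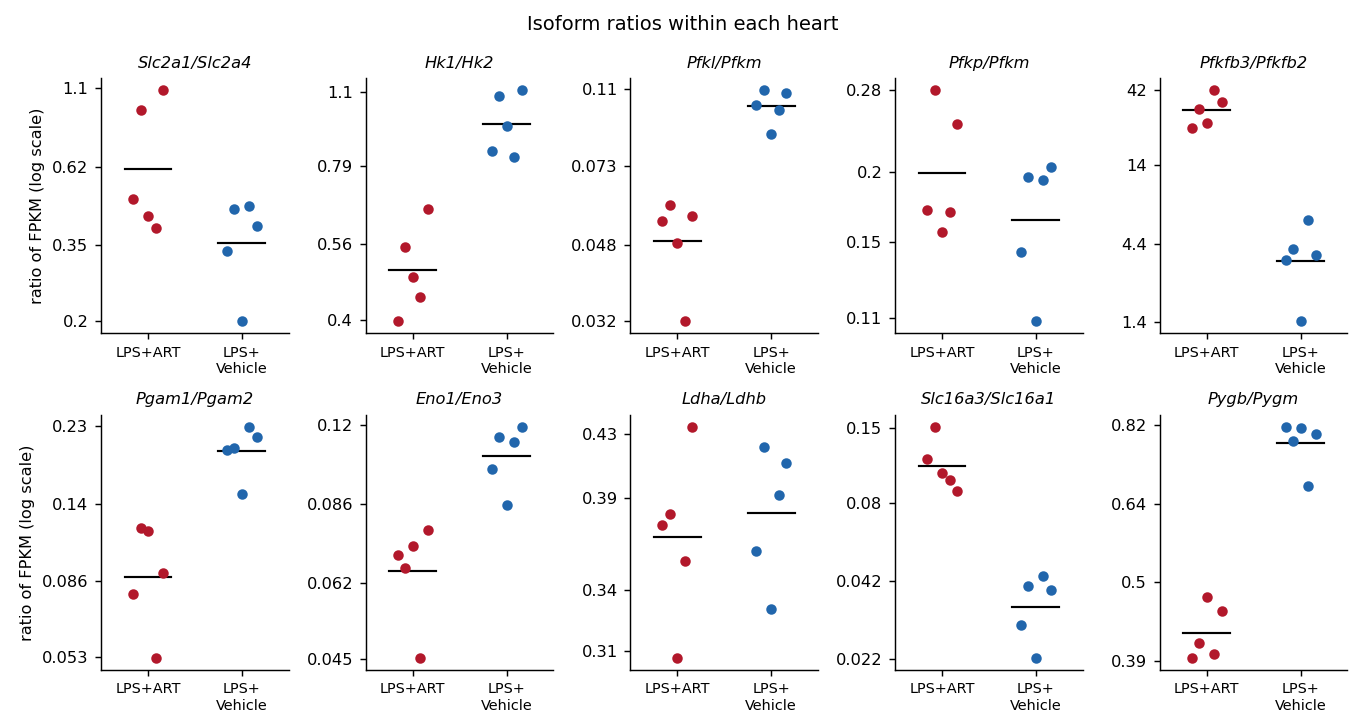
FPKM of 1 isoform over FPKM of another within each heart, on a log axis, for 10 pairs; LPS+ART hearts are red and LPS+Vehicle hearts blue, and the line is the geometric mean of 5 hearts. Pfkfb3/Pfkfb2 separates the groups most, with geometric means of 31.1 in LPS+ART and 3.44 in LPS+Vehicle, while Ldha/Ldhb overlaps.

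Members were more abundant than most genes. In all, 11 of the 31 had a mean above 100 FPKM, a level that 313 of the 13314 tested genes reached. Among those 313, 33.2% were higher and 15.0% lower as deposited, and 77.0% were higher and 4.15% lower after scaling. The 11 abundant members had 4 higher and 1 lower as deposited, and 10 higher after scaling, when Pygb passed in neither direction; such splits are near those of all genes at that level. Their median log2 fold change was 0.17 as deposited and 0.56 after scaling, where that of all 313 was 0.13 and 0.52. The 20 members at up to 100 FPKM had a median of -0.34 as deposited and 0.05 after scaling, where that of all such genes was -0.28 and 0.01.

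Other genes of glucose use were read from 8 lists, in which 92 genes were tested: limma called 12 higher and 57 lower as deposited, counts that scaling turned into 24 and 34. Over all genes 11.8% were higher and 52.9% lower as deposited, and 30.1% each after scaling. Glycogen genes were mostly lower as deposited. Among the 5 glycogen members and 25 further glycogen enzymes and regulators, 1 of 30 was higher and 23 were lower, where 11.8% and 52.9% of all genes were; after scaling 4 were higher and 12 lower, where 30.1% of all genes were called in each direction. Stbd1, a glycogen-binding protein, averaged 1.70 ± 0.622 FPKM in LPS+ART and 5.28 ± 0.447 FPKM in LPS+Vehicle (-1.25, limma adjusted p = 2.94e-05). Ppp1r3a, which tethers protein phosphatase to glycogen in striated muscle, averaged 52.5 ± 20.7 FPKM in LPS+ART and 106 ± 5.86 FPKM in LPS+Vehicle (-1.10, limma adjusted p = 0.00214). Phka2, a subunit of phosphorylase kinase, averaged 1.59 ± 0.154 FPKM in LPS+ART and 4.37 ± 0.746 FPKM in LPS+Vehicle (-1.04, limma adjusted p = 1.22e-05). All 3 also passed after scaling. The single higher gene was Pgm2, a phosphomutase of pentose and glucose phosphates, at 6.03 ± 1.16 FPKM in LPS+ART and 4.20 ± 0.463 FPKM in LPS+Vehicle (0.42, limma adjusted p = 0.00645).

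**Figure D4:**
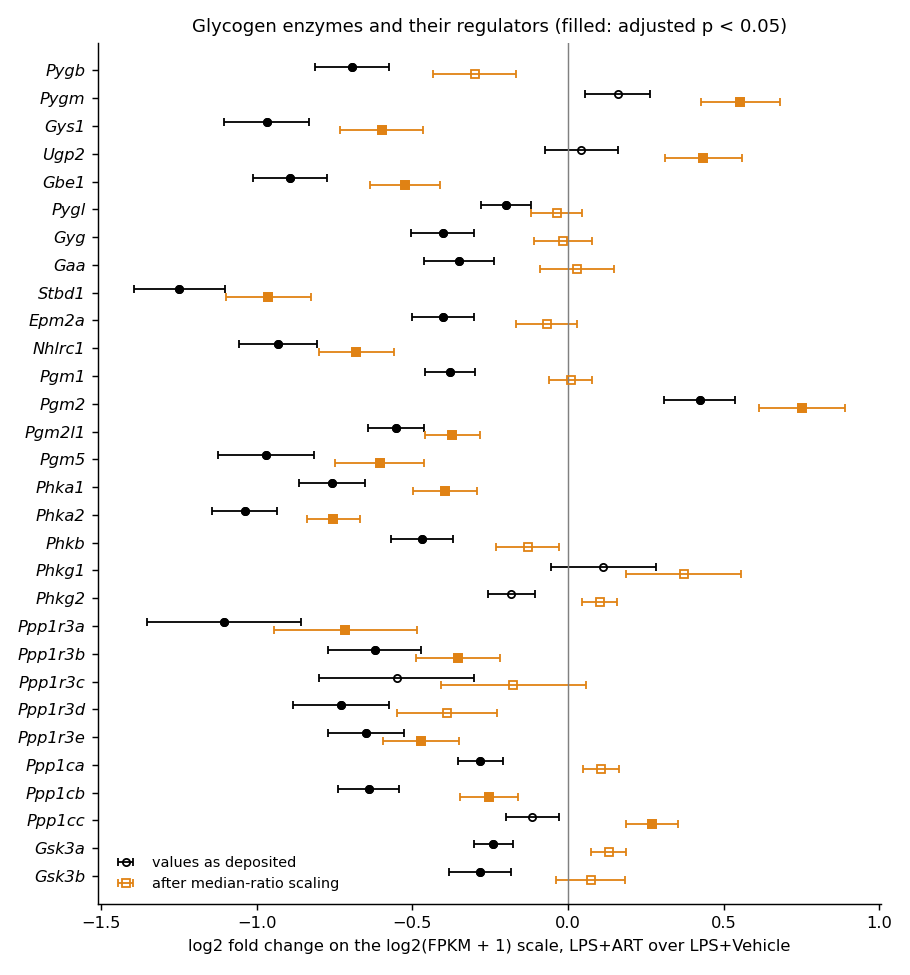
Log2 fold change of LPS+ART over LPS+Vehicle on the log2(FPKM + 1) scale for 30 glycogen enzymes and regulators, with the 5 members on top; black circles are values as deposited, orange squares values after median-ratio scaling, bars are 1 SE and filled symbols passed an adjusted p of 0.05. As deposited 1 gene was called higher (Pgm2) and 23 lower; after scaling 4 were called higher and 12 lower.

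Of the other glucose and lactate transport genes and hexokinases, 2 of 15 were higher and 5 lower as deposited, where 11.8% and 52.9% of all genes were; the balance turned to 6 higher and 3 lower after scaling, and to 6 and 4 under cyclic loess. Both subunits of the mitochondrial pyruvate carrier were called higher, Mpc1 not without LPS+Vehicle replicate 2 (limma adjusted p = 0.0587) or 3 (0.0518). Mpc1 averaged 25.3 ± 3.50 FPKM in LPS+ART and 20.9 ± 1.26 FPKM in LPS+Vehicle (0.26, limma adjusted p = 0.0234), and Mpc2 averaged 25.1 ± 2.10 FPKM in LPS+ART and 19.1 ± 1.53 FPKM in LPS+Vehicle (0.37, limma adjusted p = 0.00154). Galm, which interconverts the anomers of sugars, was 7.29-fold lower, at 0.630 ± 0.251 FPKM in LPS+ART and 4.59 ± 2.05 FPKM in LPS+Vehicle. Slc16a10, a relative of Slc16a1 that carries aromatic amino acids, was 4.95-fold lower, at 0.758 ± 0.152 FPKM in LPS+ART and 3.75 ± 0.688 FPKM in LPS+Vehicle. Both falls passed in limma (adjusted p = 6.74e-05 for Galm and 4.06e-06 for Slc16a10). Of the other glycolytic and gluconeogenic isoforms, 6 of 8 were lower and 1 higher as deposited. After scaling 4 were lower and 1 higher, where 30.1% of all genes were called in each direction. As deposited, Tigar, which removes the activator that the PFKFB kinases make, fell by 1.06 on the log2 scale. Slc37a4, the glucose phosphate transporter of the endoplasmic reticulum, fell by 0.88.

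In the pentose phosphate pathway 6 of 8 genes were lower and 2 did not pass; after scaling 3 were lower and 5 did not pass. Of all genes, 11.8% were higher and 52.9% lower as deposited and 30.1% each way after scaling, and with so few genes a list nothing particular to these pathways is read from the counts. Taldo1, transaldolase, averaged 30.7 ± 5.62 FPKM in LPS+ART and 55.0 ± 9.98 FPKM in LPS+Vehicle, and Rpe, ribulose phosphate epimerase, 1.64 ± 0.317 FPKM in LPS+ART and 3.83 ± 0.445 FPKM in LPS+Vehicle. In the hexosamine pathway 1 of 5 was higher and 3 lower (2 and 3 after scaling): Gfpt2, an inducible form of its first enzyme, rose by 0.57 (limma adjusted p = 0.0062), while Ogt, the transferase that attaches the sugar to proteins, fell by 0.76 (limma adjusted p = 5.72e-05) and Pgm3 by 0.61 (limma adjusted p = 0.000643). Among 10 genes of the shuttles that carry cytosolic NADH into mitochondria, 2 were higher and 5 lower as deposited; the balance turned to 5 higher and 3 lower after scaling, and was 2 and 2 under cyclic loess. Got1 of the malate-aspartate shuttle rose by 0.32 (limma adjusted p = 0.00301), while Gpd1, a glycerol phosphate dehydrogenase, fell by 1.24 (limma adjusted p = 0.000292). Gpd1l, its relative, averaged 4.24 ± 0.934 FPKM in LPS+ART and 13.8 ± 2.39 FPKM in LPS+Vehicle (limma adjusted p = 9.97e-06). Slc25a11, a carrier of the malate-aspartate shuttle, had a log2 fold change of 0.24 (limma adjusted p = 0.0455), a call lost in 7 of the 10 fits with 1 library left out (adjusted p up to 0.113) and with LPS+Vehicle replicates 2 and 5 averaged (0.108).

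Of 20 regulators of glucose use, 5 were higher and 11 lower as deposited; scaling made these counts 8 and 7. The shares of all genes were 11.8% and 52.9% as deposited and 30.1% each after scaling. Myc, a transcription factor that drives glycolytic genes, averaged 28.1 ± 4.65 FPKM in LPS+ART and 5.73 ± 1.63 FPKM in LPS+Vehicle (2.13, limma adjusted p = 4.47e-06). Hif1a, the hypoxia-inducible factor subunit, averaged 37.8 ± 4.25 FPKM in LPS+ART and 19.5 ± 2.89 FPKM in LPS+Vehicle (0.93, limma adjusted p = 3.1e-05). Prkaa2, the catalytic subunit of the energy-sensing kinase AMPK that predominates in muscle, averaged 6.57 ± 1.11 FPKM in LPS+ART and 22.2 ± 3.37 FPKM in LPS+Vehicle (-1.62, limma adjusted p = 4.59e-06). Tbc1d4, which holds GLUT4 vesicles inside the cell until insulin acts, averaged 2.99 ± 0.647 FPKM in LPS+ART and 9.43 ± 2.36 FPKM in LPS+Vehicle (-1.37, limma adjusted p = 2.44e-05). All 4 passed in the same direction after scaling. RNA levels do not give the activity of these proteins.

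The RefSeq promoter table held 31 of the 32 symbols, with 49 starts; Slc2a4 was not matched. ACGTG, searched on both strands in the 250 bases before each start, was present at 19 of 49 member starts (38.8%) and at 16.6% of 32851 starts of all genes. CACGTG was present at 5 of 49 member starts (10.2%) and at 6.02% of all starts. By call as deposited, 5 of 8 higher symbols, 4 of 11 lower symbols and 6 of 11 others had ACGTG before at least 1 start. These counts are per symbol, and a symbol with several starts has more chances of a match. The share of 16.6% is per start and is not their background, and a share per symbol over all genes was not computed. Windows of 1 gene can overlap, as those of the first and second Pfkfb2 starts do. No share of starts matched for base composition was computed. The match is a description of letters, and binding was not measured. Pfkfb2 has 3 listed starts, of which the second has no ACGTG match and the third has 1.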

How the data were processed

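RNA from 5 LPS+ART and 5 LPS+Vehicle mouse hearts was extracted with TRIzol, enriched with oligo-dT beads and sequenced from both fragment ends, per the labels' protocols; these list NovaSeq and MGISEQ machines and assign no sample to either. Groups come from the treatment labels and replicate numbers from the titles. The genome build is mm9, per the submitters' processing notes; aligner, counter, annotation and strandedness were not given in the sources used here. The values deposited by the authors carry no unit in their header and were judged from the values to be FPKM, not rescaled between libraries.

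The table held 30074 Ensembl identifiers, of which 29538 (98.2%) matched GENCODE M21 (GRCm38) for symbols and exon lengths. With those lengths 98.2% of matched genes gave whole reads within 0.01 read, which gave the library totals. Of read numbers of 1 to 4, 64.0% were even, so mates may have been counted apart; limits given in reads cover counting error only. The authors' FPKM values were put on the log2(FPKM + 1) scale and fitted with limma-trend (limma 3.58.1, R 4.3.3) for the 13314 genes averaging 0.5 FPKM or more, with group as the only term and all 10 libraries. Calls are Benjamini-Hochberg adjusted p under 0.05 over all genes. The scale understates changes of low genes; folds in words are ratios of mean FPKM. Isoform ratios (log2) were tested by exact permutation (scipy 1.17.1, Python 3.11.15), adjusted over 10 pairs. Beyond the group sizes nothing in the labels says that replicates are different animals, so p-values measure the spread between libraries. The fit was tested on simulated data with 50 changed genes per size among 13314 genes. It called 14% of those changed 1.25-fold, 62% of those changed 1.5-fold, 94% of those changed 2-fold, 100% of those changed 4-fold, and 7 unchanged genes. In the data 64.6% of genes were called, so the adjusted threshold was less strict there than in the simulation. These shares therefore do not carry over to the fit of the data.

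The members, the pathway and marker lists and the isoform pairs were chosen with earlier results of these data known. Named were all members and, of each pathway list, up to 2 called rises and 2 called falls, the largest among genes reaching a mean of 1 FPKM in either group; some genes this names are not reported here. Promoters are those of the 2 largest rises and falls among called members, from RefSeq's GRCm38.p6 table, which is not the build of the files, so their coordinates belong to RefSeq alone. Alternatives were median-ratio scaling, cyclic loess, other pseudocounts (0.1, 0.5), other filters (none, 1 FPKM), a replicate block, limma-voom on the recovered reads, LPS+Vehicle replicates 2 and 5 averaged, LPS+ART replicates 3 and 4 left out, also with scaling (chosen after seeing the data), and each library left out.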

Additional observations from a re-analysis of the deposited data

Results flagged for a closer look

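In 5 of 62 groups of 5 hearts (8.06%), 1 heart lay so far from its nearest neighbour that Dixon's test at 95% marked it; chance marks about 5%. Pfkfb1 was highest in LPS+Vehicle replicate 3 at 2.42 FPKM, and Pfkfb3 was lowest in the same heart at 8.46 FPKM. Pfkfb4 was lowest in LPS+ART replicate 2 at 0.827 FPKM. Ugp2 was highest in LPS+ART replicate 3 at 113 FPKM. Gapdh was highest in LPS+Vehicle replicate 4 at 33.7 FPKM; in LPS+ART, where 2 hearts were high, no heart was marked.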

How the results depend on the processing

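The count of members higher in LPS+ART, 8 as deposited, was 18 after median-ratio scaling, 17 with scaling and LPS+ART replicates 3 and 4 left out, and 5 with LPS+Vehicle replicates 2 and 5 averaged. It ranged from 5 to 9 with 1 library left out and was 5 without LPS+Vehicle replicate 2 or 5. The count of lower members, 11, was 5 after scaling with or without LPS+ART replicates 3 and 4, and 11 with any 1 library left out. Higher genes of the pathway lists, 12, numbered 24 after scaling, 22 with scaling and LPS+ART replicates 3 and 4 left out, and 19 under cyclic loess, and 7 to 13 with 1 library left out, 7 without LPS+Vehicle replicate 2. Lower genes of those lists, 57, numbered 34 after scaling, 31 with scaling and those replicates left out, 34 under cyclic loess, and 52 to 59 with 1 library left out. The 7 isoform ratios called stayed at 7 with any 1 library left out.

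The sign turned for members that passed no test as deposited. Slc2a4 gave -0.060, Pgk1 0.13, Ugp2 -0.050 and the log2 ratio of Ldha over Ldhb 0.053 without LPS+ART replicates 3 and 4. After scaling Pgk1 gave 0.35 and Eno1 0.15, and 0.47 and 0.29 when those replicates were also left out; cyclic loess gave -0.13 for Aldoa. With 1 library left out the values were -0.011 to 0.034 for Aldoa, -0.11 to 0.035 for Pgk1, -0.068 to 0.090 for Ugp2 and -0.11 to 0.014 for the Ldha over Ldhb ratio. The cause was not tested.

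Whether the replicate number pairs the samples is not settled. Deviations of same-numbered hearts correlated at 0.15, -0.07, 0.12, -0.02 and 0.18. LPS+ART replicates 1 and 3 correlated best with their own number, and LPS+ART replicates 2, 4 and 5 with another. With the replicate block, 7 members were higher and 11 lower; the paired isoform test called 0 ratios (0 at an unadjusted p under 0.05), since 5 pairs allow no p below 0.0625. Precision is limited by 5 hearts a group. In simulated data the smallest changes tried were mostly missed. Far fewer genes changed there than were called in the data, so that share does not carry over.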
